A study of Mus musculus with 10 samples.

Results

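The 10 genes described here keep T cells in the naive state or build the T cell program: Tcf7, Lef1, Satb1, Bach2, Foxo1, Foxp1, Klf2, Bcl11b, Ets1 and Themis. They were listed by name, with no threshold on their values, and all 10 were found among 33585 genes measured in tumor-draining lymph nodes (TDLNs). All 10 also had a mean of at least 1 FPKM (fragments per kilobase of transcript per 1000000 mapped fragments), the level required for testing, which 13334 genes reached. Of these genes, 9 encode DNA-binding proteins, whereas Themis encodes a cytoplasmic regulator of T cell receptor signaling and is not a transcription factor. The question was whether these genes differed in level between TDLNs of mice given 2-deoxy-D-glucose (2DG) after microwave ablation (MWA) and TDLNs of mice given ablation alone, and whether any difference was still seen relative to the T cell gene Cd3e in the same node.

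TDLNs were taken on day 15 from female wild-type BALB/c mice, aged 6 weeks, that had received 4T1 cells, a BALB/c mammary carcinoma line, in a mammary fat pad on day 0. The tumors of all 10 mice were ablated on day 10, so no untreated node is part of the comparison. The MWA+2DG group (5 mice) then received 2DG, a glucose analog that blocks glycolysis, at 500 mg/kg into the peritoneum every 2 days, and the MWA group (5 mice) received PBS on the same schedule, per the methods of the study. RNA of each whole node was sequenced as 1 poly(A) library per mouse, so mice are named here by group and replicate number. A whole node holds B cells, T cells, myeloid cells and stroma, so that fewer cells of a type and less RNA per cell cannot be told apart.

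Naive T cells circulate between blood and lymph nodes for weeks without dividing. Tcf7 (encoding TCF-1) and Lef1 bind the same DNA motif and hold T cell identity and stem-like potential, and both are lost as effector cells differentiate. Foxo1 drives Klf2, and together they maintain the receptors for node entry and exit, whereas Foxp1, Bach2 and Satb1 restrain activation and Bcl11b and Ets1 fix the T lineage.

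The deposited values hold no read counts, so the depth behind each FPKM is unknown and no counting interval is given. Between 24327 and 25226 of 33643 identifiers were above 0 per library, and the FPKM summed to between 312143 and 359984. This sum averaged 332879 ± 16650 in MWA and 318162 ± 5872 in MWA+2DG libraries (SD). Replicates 1 and 2 of both groups stood apart from replicates 3 to 5: in limma's fit 3.66% of tested genes (488) differed between these sets at an adjusted p below 0.05, and the liver genes summed to between 31.2 and 36.2 FPKM in the former and between 102 and 235 FPKM in the latter. This split was chosen with earlier results of these data known, so these values describe it and are not independent evidence of it. No label names a cause for these sets, and the values within each set and with the set as a term are given below.

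Tcf7, Lef1, Satb1 and Themis were higher in MWA+2DG nodes by the rule used throughout, an unadjusted limma P below 0.05 with a log2 fold change beyond 0.25, whereas none of the 10 genes was lower. Their group means were 25.2% (Tcf7), 27.1% (Lef1), 27.8% (Satb1) and 27.9% (Themis) above those of MWA nodes. Against these 4 of 10 genes, 0.952% of all tested genes (127 of 13334) were higher and 1.87% (249) were lower by the same rule. With libraries rescaled to an equal total, these counts became 328 and 159, and 5 of the 10 genes were higher, Foxp1 among them. The direction was shared more widely than the call, since 9 of the 10 log2 fold changes were positive (52.6% of all tested genes), with a median of 0.23 beside 0.01 over all tested genes. No gene in the whole table passed after Benjamini-Hochberg adjustment, with an adjusted p from limma of 0.995 for 9 of the 10 genes and 0.999 for Bach2, although 567 genes (4.25%) had an unadjusted P below 0.05. Of the 10, 5 genes had such a P, all of them higher in MWA+2DG nodes (1.63% of tested genes). None of the 10 genes had groups that did not overlap (0.292% of tested genes did so in the higher and 0.51% in the lower direction). The count by the rule was 2, Tcf7 and Satb1, when MWA replicate 2 or MWA+2DG replicate 3 was left out. At P below 0.05 in an exact Wilcoxon rank-sum test, with no fold limit, 2 genes passed, Satb1 and Foxp1 (3.12% of tested genes).

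**Figure D1:**
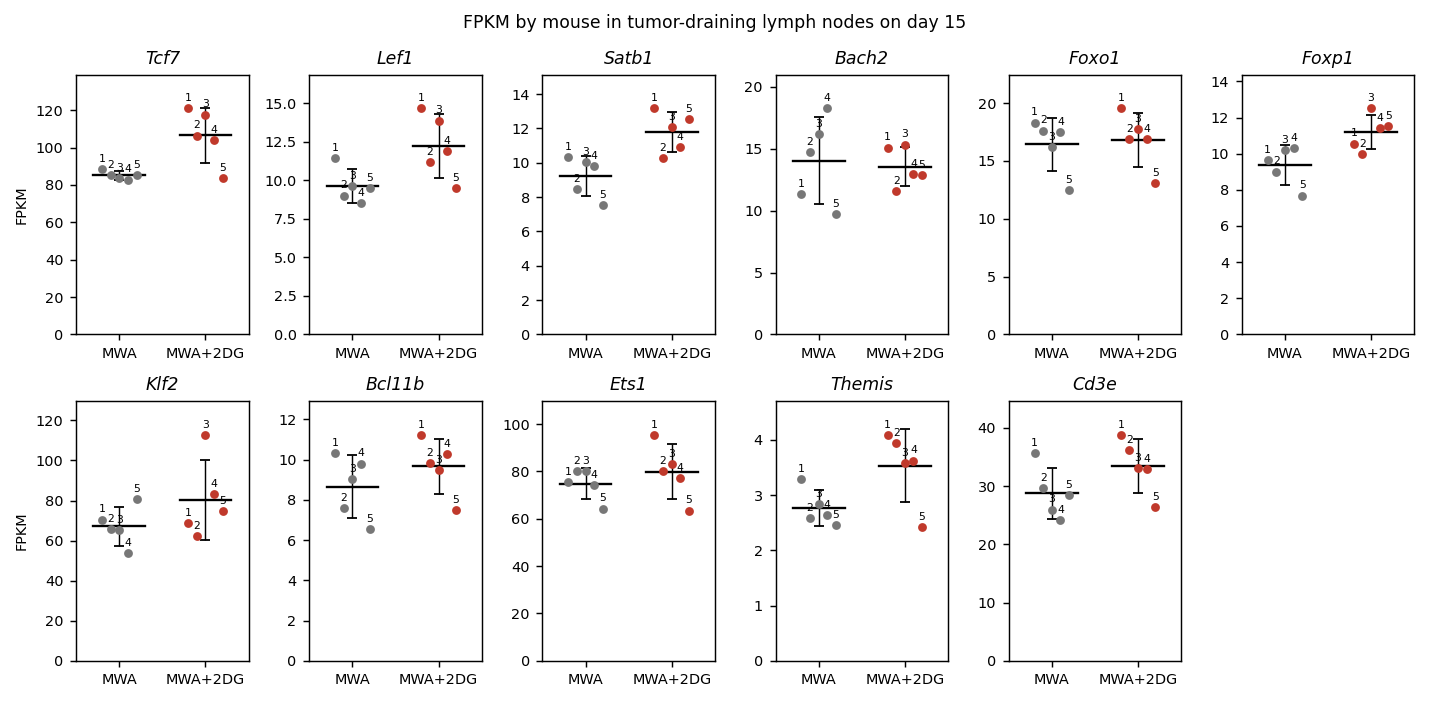
FPKM of each gene and of Cd3e (vertical axes, starting at 0) in each of 5 MWA and 5 MWA+2DG mice. Points are mice labelled by replicate number, horizontal bars are group means and error bars are SD. Tcf7 lay between 82.9 and 88.6 FPKM in MWA mice and above that in 4 of 5 MWA+2DG mice.

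Tcf7 was the most abundant of the 10 genes in every node. Its FPKM in the MWA mice was 88.6, 85.3, 83.5, 82.9 and 85.2, and in the MWA+2DG mice it was 121, 106, 118, 104 and 83.5. The MWA mice lay close together, and 4 of 5 MWA+2DG mice lay above all of them, while MWA+2DG replicate 5 lay within their range. The means were 107 ± 14.7 and 85.1 ± 2.21 FPKM (SD, n = 5 each), and the log2 fold change was 0.31 (SE 0.10, limma P = 0.00863, two-sided exact permutation p = 0.0397). The call was kept whichever mouse was left out, with log2 fold changes between 0.26 and 0.39. By exact Wilcoxon rank-sum test the P was 0.0952, a test in which only the order of the mice counts.

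Lef1, the partner of Tcf7 on the same motif, followed it at a far lower FPKM. The MWA mice had 11.4, 8.999, 9.63, 8.50 and 9.47 FPKM and the MWA+2DG mice had 14.7, 11.2, 13.9, 11.9 and 9.51 FPKM. MWA replicates 1 and 3 lay within the range of the treated mice, and MWA+2DG replicate 5 was again the lowest of its group. The means were 12.2 ± 2.07 and 9.61 ± 1.12 FPKM, with a log2 fold change of 0.31 (SE 0.12, limma P = 0.0236, exact permutation p = 0.0476). The call was lost in 4 of 10 fits without 1 mouse (MWA replicate 2 or 4, MWA+2DG replicate 1 or 3), where P was between 0.0504 and 0.0606.

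Of the genes through which Tcf7 and Lef1 act in the Wnt pathway and of their cofactors, 13 of 14 were tested, 9 had positive log2 fold changes with a median of 0.04, and 1 passed the rule. That gene was Bcl9l, a coactivator that tethers beta-catenin to its partners, at 10.4 ± 0.945 against 8.44 ± 1.44 FPKM (log2 fold change 0.28, limma P = 0.0272, exact permutation p = 0.0397). Axin2, a feedback target of the Wnt pathway, had 3.71 ± 0.826 against 2.84 ± 0.423 FPKM (0.28, exact permutation p = 0.0714), and Axin1, part of the complex that degrades beta-catenin, had a log2 fold change of 0.11 (p = 0.0794). Axin2 passed the rule with the replicate set as a term and under each of the 3 other scalings tried.

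Satb1, a chromatin organizer of T cells that folds DNA into loops, had the largest log2 fold change of the 10. In the MWA mice it stood at 10.3, 8.46, 10.04, 9.79 and 7.53 FPKM, and in the MWA+2DG mice at 13.2, 10.3, 12.1, 10.9 and 12.5 FPKM. All MWA+2DG mice were above the MWA mean, and only MWA+2DG replicate 2 fell within the MWA range, just below MWA replicate 1. Unlike for Tcf7 and Lef1, MWA+2DG replicate 5 was among the high mice. The means were 11.8 ± 1.18 and 9.23 ± 1.18 FPKM, with a log2 fold change of 0.33 (SE 0.10, limma P = 0.00737, exact permutation p = 0.0159, exact Wilcoxon P = 0.0159), and the call was kept in all 10 fits without 1 mouse.

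Bcl11b, which commits thymocytes to the T lineage, did not pass. Its FPKM was 10.3, 7.59, 9.03, 9.81 and 6.56 in MWA mice and 11.2, 9.85, 9.48, 10.3 and 7.51 in MWA+2DG mice. The groups overlapped widely, with replicate 5 lowest in both. The log2 fold change was 0.15 (SE 0.13, 95% confidence interval -0.14 to 0.44, limma P = 0.280, exact permutation p = 0.310).

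Ets1, an ETS factor needed for T cell survival and also made by B cells, shared ranks 2 and 3 of the 10 in level with Klf2 in every node. The MWA mice had 75.5, 80.2, 80.0, 74.3 and 64.3 FPKM and the MWA+2DG mice 95.5, 80.0, 83.2, 77.2 and 63.5 FPKM. Only MWA+2DG replicate 1 stood well above the other mice, and replicate 5 was again the lowest of each group. The log2 fold change was 0.08 (SE 0.11, interval -0.15 to 0.32, limma P = 0.450, exact permutation p = 0.397).

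Among 12 other transcription factors of the T lineage, 8 had positive log2 fold changes, the median was 0.07, and 1 was higher by the rule. That factor was Zbtb7b (ThPOK), which directs thymocytes to the CD4 lineage, at 15.8 ± 0.593 against 13.0 ± 1.20 FPKM, higher in 5 of 5 MWA+2DG mice than in any MWA mouse (log2 fold change 0.26, limma P = 0.00477, exact permutation p = 0.00794, the smallest that 5 against 5 mice can give). Zbtb7b was named for its small P in this list, so these p-values are descriptive. Its adjusted p from limma was 0.995, and 0.292% of all tested genes were likewise separate in the higher direction. Gata3, the factor of CD4 and Th2 cells, had 0.22 (exact permutation p = 0.0397), short of the fold limit, and Tcf12, an E protein, had 0.13 (p = 0.167).

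Neither forkhead factor passed the rule. Foxp1, which holds naive T cells in quiescence, had 9.65, 9.01, 10.2, 10.3 and 7.68 FPKM in MWA mice and 10.6, 9.997, 12.5, 11.4 and 11.5 FPKM in MWA+2DG mice. As with Satb1, 4 of 5 MWA+2DG mice lay above every MWA mouse and MWA replicate 5 was the lowest of all. The means were 11.2 ± 0.960 and 9.38 ± 1.08 FPKM, and the log2 fold change of 0.24 (SE 0.09, limma P = 0.0253, exact permutation p = 0.0238, exact Wilcoxon P = 0.0317) stopped just under the fold limit. It passed the limit with a pseudocount of 0.1 (0.26) and with libraries rescaled to an equal total (0.31). It also passed in 4 of 10 fits without 1 mouse (MWA replicate 3 or 4, MWA+2DG replicate 1 or 2), while P reached 0.0658 in the others.

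Foxo1, which keeps naive T cells alive and homing, had 18.3, 17.6, 16.2, 17.5 and 12.5 FPKM in MWA mice and 19.5, 16.9, 17.7, 16.9 and 13.1 FPKM in MWA+2DG mice. Only 1 mouse of the treated group exceeded the MWA range. The log2 fold change was 0.03 (SE 0.12, interval -0.24 to 0.30, limma P = 0.790, exact permutation p = 0.706), and it was -0.06 without MWA replicate 5 and -0.02 without MWA+2DG replicate 1.

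Klf2, the Foxo1 target that maintains trafficking receptors and quiescence, varied widely between mice. The MWA mice had 70.5, 65.7, 65.3, 53.8 and 80.9 FPKM and the MWA+2DG mice had 68.6, 62.1, 113, 83.1 and 74.5 FPKM. MWA+2DG replicate 3 stood far above the rest, and the other treated mice were spread through the MWA range or just above it. The means were 80.2 ± 19.8 and 67.2 ± 9.80 FPKM, with a log2 fold change of 0.23 (SE 0.16, interval -0.12 to 0.58, limma P = 0.170, exact permutation p = 0.238). It was 0.10 without MWA+2DG replicate 3.

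Homing and survival genes that Foxo1 or Klf2 control were tested in full: 7 of 8 had positive log2 fold changes, with a median of 0.23, and 1 was higher by the rule. S1pr4, a sphingosine-1-phosphate receptor of lymphocytes, had 38.2 ± 3.60 against 30.0 ± 3.69 FPKM and was above all MWA mice in 4 of 5 treated mice (log2 fold change 0.34, limma P = 0.00480, exact permutation p = 0.0159). Bcl2, which protects from apoptosis, had 0.21 (exact permutation p = 0.127). Of 16 quiescence genes, 14 were positive, with a median of 0.13, and 2 were higher by the rule. These were the cell cycle inhibitor Cdkn1b (33.2 ± 3.99 against 27.6 ± 1.84 FPKM, 0.25, exact permutation p = 0.0159) and the repressor Klf3 (8.42 ± 0.818 against 6.91 ± 0.835 FPKM, 0.26, p = 0.0317). Foxo3, a relative of Foxo1, had 0.16 with a limma P above 0.05 (exact permutation p = 0.0397).

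Bach2, a repressor of effector genes in T cells that also delays plasma cell formation in B cells, was the only one of the 10 with a negative log2 fold change, which turned to 0.040 with libraries rescaled. Its FPKM was 11.4, 14.7, 16.2, 18.2 and 9.74 in MWA mice and 15.1, 11.5, 15.3, 13.0 and 12.9 in MWA+2DG mice. All treated mice lay inside the MWA range, and the MWA mice ranged nearly 2-fold. The log2 fold change was -0.02 (SE 0.16, interval -0.37 to 0.32, limma P = 0.889, exact permutation p = 0.881), and leaving out single mice moved it between -0.14 and 0.07. Prdm1 (Blimp-1), which Bach2 represses, had 1.59 ± 0.251 against 2.01 ± 0.396 FPKM (log2 fold change -0.21, exact permutation p = 0.0952). It belongs to 13 effector transcription factors, of which 9 were positive with a median of 0.04 and none passed the rule in either direction. Plasma cell genes in these whole nodes also had a negative median (-0.37), and which cells made Prdm1 was not measured. Bhlhe40, a regulator of cytokine production, had -0.08 (exact permutation p = 0.262) and Rbpj, the nuclear partner of Notch, had 0.06 (p = 0.429).

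Themis, which tunes T cell receptor signaling during positive selection, had the lowest level of the 10 in every node. The MWA mice had 3.29, 2.59, 2.84, 2.63 and 2.46 FPKM and the MWA+2DG mice 4.09, 3.94, 3.57, 3.62 and 2.42 FPKM. The pattern was that of Tcf7, with 4 of 5 treated mice above every MWA mouse, and MWA+2DG replicate 5 was the lowest of all 10 mice. The means were 3.53 ± 0.658 and 2.76 ± 0.325 FPKM, with a log2 fold change of 0.26 on log2(FPKM + 1), a scale that understates changes at such low values (SE 0.11, limma P = 0.0418, exact permutation p = 0.0635). The call was kept in only 2 of 10 fits without 1 mouse, those without MWA replicate 1 or MWA+2DG replicate 5, and P was between 0.0589 and 0.0996 in the other 8. None of 7 Themis partners passed the rule, 5 were positive and the median was 0.03. The adaptor Grb2 and the phosphatase Ptpn6 (SHP-1), both bound by Themis, had log2 fold changes of -0.10 and -0.09 (exact permutation p = 0.111 for both), and the calcium channel Itpr1 had 0.18 (p = 0.270).

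Of 18 close relatives of the 10 genes, 14 reached the level for testing. Of those 14, 12 were positive, with a median of 0.12, and 2 were higher by the rule. Klf13, which shares the zinc fingers of the Klf family, had 23.1 ± 1.52 against 18.9 ± 2.25 FPKM and was above every MWA mouse in 5 of 5 treated mice (log2 fold change 0.28, limma P = 0.0103, exact permutation p = 0.00794), and the other was Klf3. Klf13 was named for its small P as well, and its adjusted p from limma was 0.995.

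**Figure D2:**
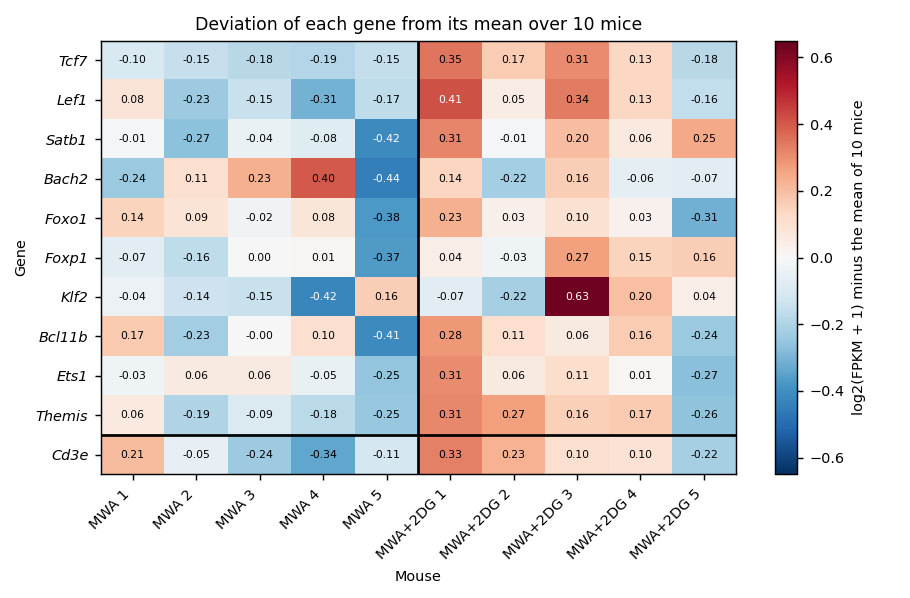
Deviation of log2(FPKM + 1) from the mean of 10 mice, for each gene and Cd3e (rows) in each mouse (columns, MWA left of the line and MWA+2DG right of it). MWA+2DG replicate 3 is above the mean for 10 of 10 genes and MWA replicate 5 for 1 of 10.

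Read by mouse instead of by gene, most of the 10 genes lay on the same side of their means in some mice. In others they were split, as in MWA replicate 1 (4 of 10 above) and MWA+2DG replicate 2 (6 of 10 above). The group difference is part of these deviations, and whether the genes moved together was not tested. All 10 were above their own mean over 10 mice in MWA+2DG replicate 3, and 9 were above it in MWA+2DG replicates 1 and 4. Averaged over the genes, the deviation on the log2 scale was 0.23 in MWA+2DG replicates 1 and 3 and 0.10 in replicate 4. MWA+2DG replicate 2 was near the mean (0.02), and MWA+2DG replicate 5 was below it (-0.11, with 3 of 10 genes above). In the MWA group the average lay between -0.27 (replicate 5, with 1 of 10 genes above) and -0.00 (replicate 1). Thus 1 treated mouse resembled the MWA mice, and its exceptions were Satb1, Foxp1 and Klf2.

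The direction was also looked at within the replicate sets. In replicates 1 and 2, 9 of 10 log2 differences were positive, all but that of Klf2 (-0.06), and in replicates 3 to 5 again 9 were positive, all but that of Bach2 (-0.06). Tcf7 differed by 0.38 and 0.26 in the first and second set, Lef1 by 0.31 in both, and Satb1 by 0.29 and 0.35. Foxp1 differed by 0.13 and 0.31 and Klf2 by -0.06 and 0.43, so that the latter gene had its positive difference in replicates 3 to 5 alone. With the set as a term in limma, the same 4 genes passed the rule, and the adjusted p of Tcf7, the lowest of the 10 genes, was 0.822.

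Whether these differences went beyond those of T cells in general was asked by setting each gene against Cd3e, a chain of the T cell receptor complex. In whole-node RNA this ratio is not a level per T cell where other cells also make the gene. B cells do so for Ets1 and Bach2, for example. Which cells made each gene was not measured, so the same limit can apply to the other genes, Foxo1, Foxp1 and Klf2 included. Cd3e itself had 35.7, 29.6, 26.0, 24.2 and 28.4 FPKM in MWA mice and 38.8, 36.2, 33.1, 33.0 and 26.4 FPKM in MWA+2DG mice. Its group means were 28.8 ± 4.40 and 33.5 ± 4.66 FPKM, 16.4% apart, and its own log2 fold change of 0.21 (SE 0.12, limma P = 0.112, exact permutation p = 0.127, and limma P = 0.0365 with the replicate set as a term) stayed under the fold limit. Cd3e passed the rule with libraries rescaled to an equal total. Cd3e was also lower in replicates 3 to 5 than in 1 and 2, with a log2 difference of -0.29 (adjusted p from limma 0.110).

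**Figure D3:**
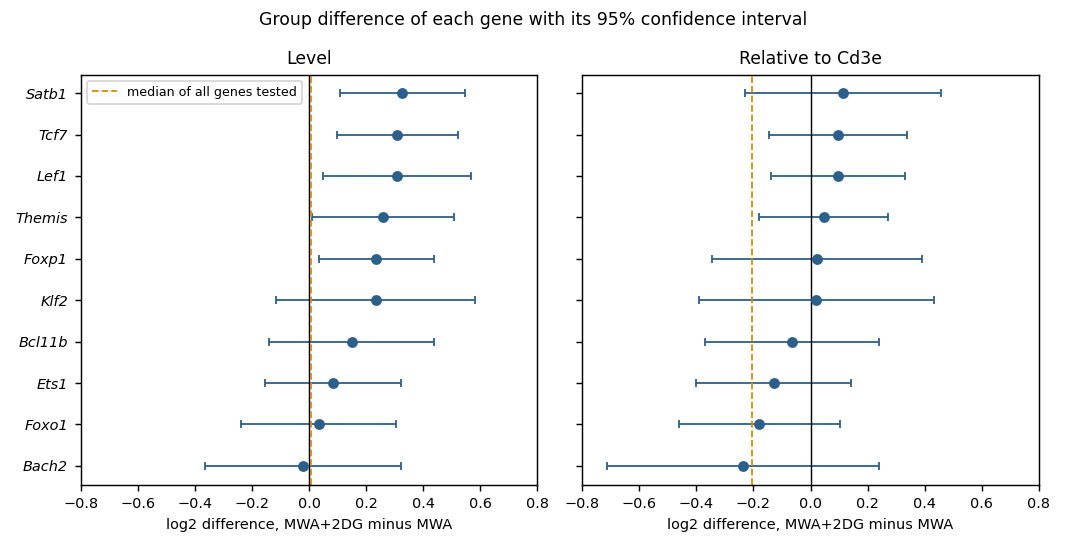
Log2 difference between group means, MWA+2DG minus MWA (horizontal axes), for the level of each gene (left) and for its level relative to Cd3e (right). Points are limma estimates, bars are 95% confidence intervals and dashed lines are the medians of all tested genes. Intervals of 5 genes lie above 0 on the left and none on the right.

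Relative to Cd3e, none of the 10 genes passed the rule. The relative log2 difference was 0.11 for Satb1, 0.10 for Tcf7 and Lef1, 0.05 for Themis and 0.02 for Foxp1 and Klf2, and it was -0.06 for Bcl11b, -0.13 for Ets1, -0.18 for Foxo1 and -0.24 for Bach2. The limma P was between 0.190 and 0.918, the adjusted p between 0.375 and 0.941, and the exact permutation p between 0.175 and 0.937. Because the shift in Cd3e was subtracted from every gene, the median over all tested genes moved from 0.01 to -0.21, and only 5.01% of tested genes were positive on this scale, with 0.0300% higher and 18.7% lower by the rule. Of the 10 genes, 6 were positive, and the median was 0.02. These values do not show that the ratios were equal. The 95% intervals reached from -0.14 to 0.34 for Tcf7, from -0.14 to 0.33 for Lef1, from -0.23 to 0.46 for Satb1, from -0.46 to 0.10 for Foxo1 and from -0.71 to 0.24 for Bach2, so that a log2 difference of 0.25 in favor of the treated mice lay within the first 3 intervals.

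**Figure D4:**
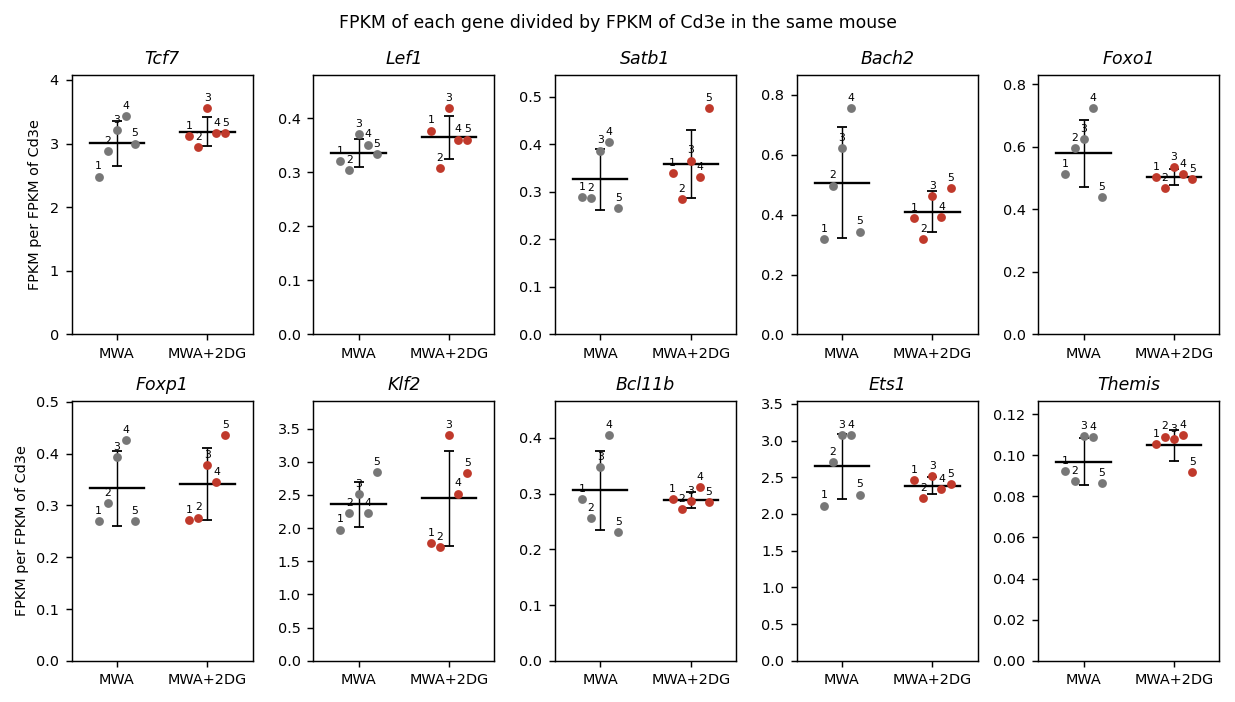
FPKM of each gene divided by that of Cd3e in the same mouse (vertical axes, starting at 0), for 5 MWA and 5 MWA+2DG mice. Points are mice labelled by replicate number, horizontal bars are group means and error bars are SD. The groups overlap for all 10 genes. Foxo1, Bcl11b, Ets1 and Bach2 are among those more widely spread in MWA mice, and Klf2 is more widely spread in MWA+2DG mice.

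The FPKM ratio of Tcf7 to Cd3e was 2.48, 2.88, 3.22, 3.43 and 3.00 in the MWA mice and 3.12, 2.94, 3.55, 3.16 and 3.17 in the MWA+2DG mice. MWA+2DG replicate 5, which was low for Tcf7 itself, had a ratio like the rest of its group, since its Cd3e was low as well. The mean ratios were 3.19 ± 0.223 and 3.00 ± 0.357. For Lef1 the ratio was 0.365 ± 0.0394 in MWA+2DG mice and 0.336 ± 0.0261 in MWA mice, and for Themis it was 0.105 ± 0.00745 and 0.0969 ± 0.0114. Foxo1 had ratios of 0.503 ± 0.0248 and 0.579 ± 0.108, and Bcl11b had 0.289 ± 0.0143 and 0.306 ± 0.0707, where the treated mice were closely grouped and the MWA mice were not. Klf2 went the other way, with 2.45 ± 0.719 in MWA+2DG mice and 2.36 ± 0.334 in MWA mice. A difference in spread was not tested. The groups overlapped in the relative level of all 10 genes, while 0.0075% of tested genes were separate in the higher and 3.1% in the lower direction.

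Of the 10 genes, Bach2, Klf2, Foxp1 and Satb1 followed Cd3e least from mouse to mouse. Over the 10 mice, the ratio to Cd3e ranged from 0.318 to 0.754 for Bach2 and from 1.72 to 3.41 for Klf2. It ranged from 0.270 to 0.437 for Foxp1 and from 0.265 to 0.475 for Satb1. Within groups, the SD of the log2 level relative to Cd3e was smaller than that of the level itself for 5 of the 10 genes (Tcf7, Lef1, Foxo1, Bcl11b and Themis). For Bach2 it was 0.39 against 0.27, for Satb1 0.26 against 0.16, and for Foxp1 0.28 against 0.14, so that Cd3e added spread instead of removing it. With MWA replicate 5 left out, Foxo1 passed the rule in the lower direction (-0.27), the only such call in the fits without 1 mouse. With all mice, 18.7% of tested genes were lower by the rule on this scale and the median was -0.21, so nothing particular to Foxo1 follows. Against the mean of 15 T cell identity genes, or of the 4 CD3 chains, in place of Cd3e, no gene had a P below 0.276 or 0.357, respectively.

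**Figure D5:**
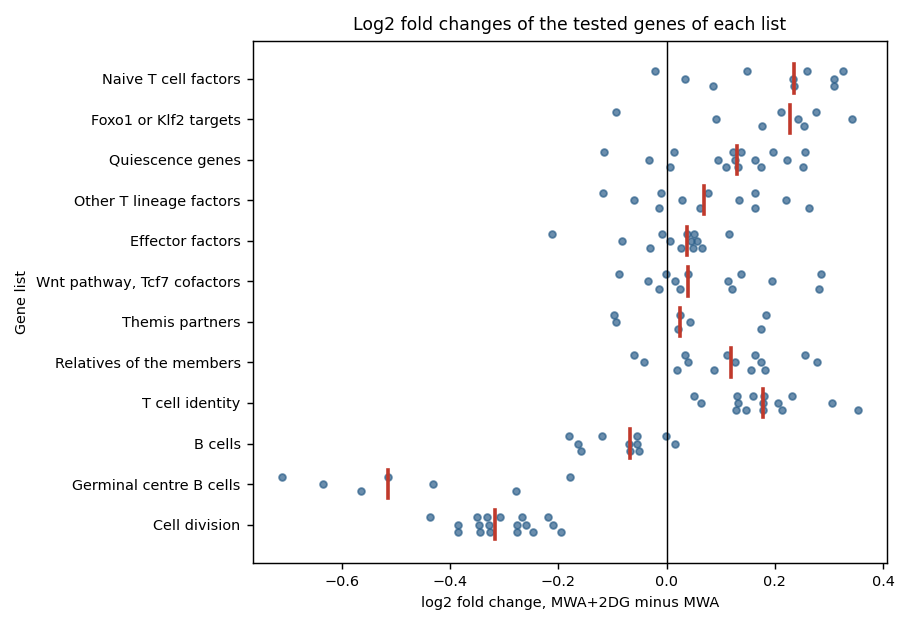
Log2 fold change, MWA+2DG minus MWA (horizontal axis), of each tested gene (points) in each gene list (rows), with the list's median (bar). The 10 naive T cell factors have a median of 0.23, the T cell identity genes 0.18, the B cell genes -0.07 and the cell division genes -0.32.

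The T cell identity genes moved in the same direction as the 10 genes. All 15 of 15 had positive log2 fold changes, with a median of 0.18, and 2 were higher by the rule. The receptor adaptor Trat1 was one of them (7.90 ± 1.31 against 5.95 ± 0.904 FPKM, log2 fold change 0.35, exact permutation p = 0.0317). The costimulatory receptor Cd28 had 0.23 (exact permutation p = 0.0952). Summed over the list, FPKM ran from 485 to 687 in MWA+2DG mice and from 434 to 724 in MWA mice. MWA replicate 1, the highest of all 10 mice in this sum, was also the MWA mouse with the highest Tcf7, Lef1, Satb1, Themis, Foxo1 and Bcl11b.

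Lists of the other cells in the node moved beside the 10 genes, and their part in the results was not tested. Of 11 B cell genes, 1 was positive, the median was -0.07 and none passed the rule, with sums from 1532 to 1775 FPKM in MWA+2DG mice and from 1647 to 1853 in MWA mice. All 7 genes of germinal centre B cells were negative, with a median of -0.51 and sums from 76.0 to 122 against 113 to 187 FPKM, and 5 were lower by the rule. Of 7 plasma cell genes, 6 were tested, all were negative with a median of -0.37, and Mzb1 and Xbp1 were lower by the rule, with sums from 235 to 507 against 315 to 826 FPKM. All 18 cell division genes were negative, 11 were lower by the rule, the median was -0.32, and the sums ran from 174 to 282 against 256 to 341 FPKM. Of 8 neutrophil genes, 2 reached the level for testing, S100a8 and S100a9, both lower by the rule, with sums from 1.91 to 17.0 against 12.1 to 86.0 FPKM, the highest in MWA replicate 1. Adipose genes were highest in MWA+2DG replicate 5 (96.6 FPKM, against 4.53 to 51.8 in the other 9 mice), the treated mouse with the lowest Tcf7 and Lef1, with 4 of 7 genes tested and none past the rule. In the lists for NK cells, dendritic cells, macrophages, stroma, endothelium, muscle, epithelium, red blood cells and liver, the macrophage receptor Csf1r was lower by the rule and no other gene passed.

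The genes whose values followed the average of the 10 most closely over the 10 libraries, after group means were subtracted, were Ankrd28 (Pearson r = 0.965), Dhx57 (0.948), Nacc2 (0.948), Grap2 (0.947) and Zfp667 (0.932). They were picked as the highest of all tested genes, so these values are descriptive and carry no p, and mice of a library set share that set. Cd3e had r = 0.479 by the same measure. Grap2 encodes GADS, a T cell receptor adaptor, and had 35.3 ± 5.50 against 28.5 ± 4.36 FPKM (log2 fold change 0.30). Nacc2, a transcriptional repressor, had 2.14 ± 0.170 against 1.65 ± 0.115 FPKM (0.24), whereas Ankrd28, Dhx57 and Zfp667 had -0.01, 0.04 and -0.05.

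In level per length, the 10 genes fell into 3 tiers. Over 10 mice, Tcf7 (95.8 ± 15.0 FPKM), Ets1 (77.3 ± 9.19) and Klf2 (73.7 ± 16.3) were above 95% of tested genes. Foxo1 (16.6 ± 2.22), Bach2 (13.8 ± 2.56), Lef1 (10.9 ± 2.09), Satb1 (10.5 ± 1.75), Foxp1 (10.3 ± 1.36) and Bcl11b (9.17 ± 1.49) formed the middle, and Themis (3.15 ± 0.635) was the lowest. Neighbors within a tier had overlapping ranges over mice, and the ranges of Klf2 and Foxo1 and those of Bcl11b and Themis did not overlap. Tcf7 ranked first and Themis last of the 10 in all 10 libraries, and the tiers held in both groups. Tcf7 and Lef1, which share a motif, thus lay in different tiers.

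Since several of these factors bind each other's genes, their promoters were searched for 5 motifs, those of the TCF/LEF, forkhead, Klf, ETS and Bach families. No motif was searched for Satb1 or Bcl11b. Windows of 300 bases, from 250 before to 50 after each RefSeq start site on GRCm38.p6, were at hand for 9 of the 10 genes (20 windows, some overlapping) among 32851 windows of 27025 genes. The RefSeq build differs from the one of the deposited values, so the windows serve for sequence alone. The ETS motif, searched as CNGGAAGT on both strands, was found in 3 of the 20 windows (15.0%), against 9.53% of all windows. These windows belong to Tcf7, Lef1 and Satb1, which have several windows each, so that nothing particular to these genes follows. The 4 matches are shown because these genes were higher by the rule, as was Themis, which had no ETS match in its windows. Each match is printed in 30 bases of the gene's own strand with the motif in capitals, given as its reverse complement where it lies on the opposite strand.
Tcf7, chr11:52282716-52282745, minus strand: ttcccggacaaACTTCCAGagtccctagag
Tcf7, chr11:52282603-52282632, minus strand: gagctggagtcACTTCCGGtgccctgacct
Lef1, chr3:131156269-131156298, plus strand: ttgattgcacaCAGGAAGTtataacagatc
Satb1, chr17:51826657-51826686, minus strand: acctaggtgtgCAGGAAGTggagggcgttc

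The motif that Tcf7 and Lef1 themselves bind, searched as CTTTGA on both strands, was in 4 of the 20 windows (20.0%), against 16.0% of all windows. They belong to Lef1, Bach2, Foxp1 and Bcl11b. Lef1 held it at 2 places, and Tcf7 and Satb1 had no match in these windows. The matches follow with the motif in capitals, which reads TCAAAG on the opposite strand.
Lef1, chr3:131156102-131156131, plus strand: taaaatacatggTCAAAGgaaaataggtat
Lef1, chr3:131156162-131156191, plus strand: cattgtctgttcTCAAAGtcaggtcttgca
Bach2, chr4:32417330-32417359, plus strand: actgtgttgttcTCAAAGttgagtagagtt
Foxp1, chr6:99266702-99266731, minus strand: gcaagatcacatTCAAAGgtagatctccca
Bcl11b, chr12:108003486-108003515, minus strand: agaggccaagcaCTTTGAagaagtgtgaga

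The forkhead motif TGTTTA was in 25.0% of the 20 windows (those of Tcf7, Lef1 and Foxp1) and in 13.4% of all windows. The Klf motif CCNCNCCC was in 85.0% of the 20 windows, those of 8 of the 9 genes and not of Bach2, and in 49.5% of all windows. The median GC content was 57.5% in the 20 windows and 52.7% over all windows, and its part in the matches was not tested. TGANTCA, the core bound by Bach proteins, was in 7.81% of all windows and in none of the 20. A match describes letters in a window and is no evidence of binding, and no match says only that these letters are not in this window.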

How the data were processed

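Whole TDLNs of 10 mice (1 library each, 5 per group as labelled) were compared. The authors deposited FPKM per gene from HISAT2, StringTie and ballgown, after fastp per the paper. The submitters' processing notes also list cutadapt 1.9, HISAT2 2.0.4, UMI-tools, StringTie 1.3.4d and build mm9, without their order. No source used here names the annotation. FPKM is scaled by length and mapped fragments, so a large change in a few genes shifts the others. Poly(A) RNA came from 1 μg of total RNA per the paper and 5 μg per the labels.

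Symbols were matched for 33541 of 33643 identifiers, and 57 symbols held by several identifiers were summed. Here log2(FPKM + 1) was fitted with limma 3.58.1 (R 4.3.3; lmFit, eBayes, no covariate) over the 13334 genes that averaged 1 FPKM or more, with Benjamini-Hochberg adjustment over all of them. The rule (P below 0.05, log2 fold change beyond 0.25) follows the study's, whose log base is not stated. The relative fit subtracts log2(FPKM + 1) of Cd3e in the same library. Exact permutation tests (two-sided) enumerated all 252 groupings with NumPy 2.4.6. The script was tested on simulated data. The p-values measure the spread between mice within 1 experiment.

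The 10 genes, all 24 lists and the split into replicate sets were chosen with earlier results of these data known, so they are not independent evidence. Named were the 10 genes, Cd3e, the 3 genes of smallest P in each pathway list and the 5 genes nearest in profile. A few genes so selected are left unreported. The p-values of genes picked by their P are descriptive. Alternatives were a pseudocount of 0.1, no filter or one of 5 FPKM, limma-trend, Wilcoxon tests, rescaling to 1000000, median ratio scaling, quantile normalization, the replicate number as a block, the replicate set as a term, 2 other T cell references, and leaving out each mouse.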

Additional observations from a re-analysis of the deposited data

Results flagged for a closer look

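Of 96 groups of 5 values checked for a mouse that stands apart from its group (Dixon's criterion), 2 were flagged, and chance flags about 1 in 20 such groups. Themis relative to Cd3e was 0.0918 in MWA+2DG replicate 5, with a gap to the nearest mouse of 0.752 of the group's range. Ankrd28, the gene nearest in profile, had 2.39 FPKM in MWA replicate 5, with a gap of 0.897 of the range.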

How the results depend on the processing

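Depth could not be assessed, since FPKM holds no counts. The count of the 10 genes higher by the rule was 4, and it ran from 2 to 4 with single mice left out (2 without MWA replicate 2 or MWA+2DG replicate 3). By Wilcoxon test at P below 0.05, with no fold limit, the count was 2. Relative to Cd3e the count by the rule was 0, and 0 to 1 with single mice left out (1 without MWA replicate 5). The median of the 10 genes stayed between 0.18 and 0.25 with single mice left out and was 0.31 after rescaling, where the median of all genes was 0.07. Over the whole table, 376 genes passed, 230 with a filter of 5 FPKM (where fewer genes were tested, Themis not among them) and 283 to 512 with single mice left out. Rescaling turned 127 higher and 249 lower genes into 328 and 159, raising the higher share of calls from 33.8% to 67.4%. It removed the lower summed FPKM of the MWA+2DG group, and it also raised all values before 1 was added, so that the added 1 weighed less. The higher count was 199 or 82 without MWA replicate 1 or 5, and 83 or 222 without MWA+2DG replicate 1 or 5, the last of which made the higher share 55.8%. At an adjusted p below 0.05 the count was 0, and 1 without MWA replicate 2. Themis missed the fold limit under quantile normalization (0.25).

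Signs turned after rescaling for Bach2 (0.040) and Ankrd28 (0.049), and relative to Cd3e under quantile normalization for Foxp1 (-0.022) and Themis (-0.0026). With single mice left out, levels ran from -0.14 to 0.075 for Bach2, -0.056 to 0.12 for Foxo1, -0.061 to 0.054 for Ankrd28, -0.023 to 0.10 for Dhx57 and -0.084 to 0.015 for Zfp667, and values relative to Cd3e from -0.15 to 0.037 for Bcl11b, -0.068 to 0.11 for Foxp1 and -0.11 to 0.13 for Klf2. For these changes the cause was not tested beyond the genes and mice left out.

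With the replicate number as a block, 4 of the 10 genes and 449 genes of the table passed. Deviations of same-numbered mice correlated by 0.331, 0.501, 0.110, 0.0334 and 0.151. All were positive, and they do not settle whether the numbers are pairs, which the main fit did not assume. With the block, the limma P of Bcl11b was 0.0686, against 0.280 without it, and no call among the 10 genes changed. Axin2 gained the call with the block.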
